A study of Mus musculus with 6 samples.

Results

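The 10 genes described here code for proteins that switch MAP kinase signalling off again after it has been started. They are the MAP kinase phosphatase genes Dusp1, Dusp2, Dusp4, Dusp5, Dusp6 and Dusp16, the Sprouty genes Spry1, Spry2 and Spry4, and the Sprouty-related gene Spred1. They were chosen by symbol, and all 10 were found among the 27634 genes of the deposited table. The RNA came from cells labelled as Cancer-Associated Dendritic Cells, taken from C57BL/6 mice that carried ID8-Defb29/Vegf-a, a mouse ovarian tumour line that expresses Defb29 and Vegf-a, for 32 to 38 days. All mice were treated with 100 µg of siRNA in nanocomplexes of polyethylenimine, a polymer carrier linked to rhodamine. One siRNA was Non-Targeting (NT), and the other targeted Satb1, the gene of a chromatin organiser. Per the labels, Satb1 was strongly reduced in one experiment (called the high experiment here, 2 libraries with each siRNA) and weakly in the other (the low experiment, 1 library with each siRNA). The 4 groups share the strain, the tumour line and the nanocomplex treatment, and they differ in siRNA and experiment. The sources used here do not give how cells were purified or whether any library pools several animals.

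MAP kinases (ERK, JNK and p38) pass signals from growth factor, cytokine and Toll-like receptors to the nucleus. Dual specificity phosphatases remove the activating phosphates from both the threonine and the tyrosine of a MAP kinase. Many of their genes are themselves induced by MAP kinase activity and give short-lived transcripts, so they act as negative feedback. Sprouty and Spred proteins act further upstream, at the level of Ras and Raf. In macrophages and dendritic cells DUSP1 is best known for limiting p38 and JNK activity, and with it the output of inflammatory cytokines, after a Toll-like receptor signal.

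Total counts ran from 24553454 to 71272720 per library. The repeats of each high group were close to identical, with a chi-square per gene of 1.202 (NT) and 1.37 (Satb1 siRNA); sampling alone gives about 1. Among the 10 genes, 1 differed between the NT repeats and 2 between the Satb1 siRNA repeats at an unadjusted chi-square p under 0.05. The share of all genes at that rule is not given here. At a chi-square adjusted p under 0.05, a stricter rule, 59 of 21413 genes differed in NT and 89 of 21409 in Satb1 siRNA. Nothing in the labels says that the repeats came from separate mice, and each high group may be 1 sample. They nevertheless entered the edgeR fit as 2 libraries a group, so the SEs, adjusted p-values and calls below set a difference against the spread between repeats alone. They compare the sequenced libraries, not conditions over independent animals. Satb1, the targeted gene, stood at 1233 and 1193 counts in the high NT libraries and at 184 and 200 in the high Satb1 siRNA libraries. In the low experiment it stood at 170 counts with NT and 165 with Satb1 siRNA, so that the low comparison is one of 2 libraries with little difference in the targeted transcript (ratio 0.835 after scaling, 95% counting interval 0.670 to 1.04).

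The upstream sequences of Dusp1, Dusp2 and Dusp5 are shown because Dusp1 and Dusp2 had a similar course over the 4 groups, while Dusp5 shared it in the high experiment and in the controls but not in the low experiment. RefSeq promoters (build GRCm38.p6) of 8 of the 10 genes were used, and those of Dusp4 and Spry4 were not searched. The 250 bases before the annotated start were searched on both strands for TGACGTCA (the cyclic AMP response element) and for its shorter form, TGACG. The search also took in the E-box of the MYC and USF type, spelled CACGTG, the AP-1 site, spelled TGANTCA, and the CArG box bound by serum response factor. The motifs were picked after the sequences had been read. Capitals mark matches. The Dusp1 stretch is chr17:26508473-26508722 (minus strand), that of Dusp2 is chr2:127335909-127336158 (plus strand) and that of Dusp5 is chr19:53528895-53529144 (plus strand), each upstream of its gene and each written 5′ to 3′ along the gene.
Dusp1: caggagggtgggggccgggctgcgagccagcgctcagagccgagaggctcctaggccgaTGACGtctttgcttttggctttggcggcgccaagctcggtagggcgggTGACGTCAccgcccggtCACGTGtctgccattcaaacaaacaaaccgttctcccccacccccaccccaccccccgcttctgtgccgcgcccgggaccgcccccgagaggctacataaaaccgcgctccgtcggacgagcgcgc
Dusp2: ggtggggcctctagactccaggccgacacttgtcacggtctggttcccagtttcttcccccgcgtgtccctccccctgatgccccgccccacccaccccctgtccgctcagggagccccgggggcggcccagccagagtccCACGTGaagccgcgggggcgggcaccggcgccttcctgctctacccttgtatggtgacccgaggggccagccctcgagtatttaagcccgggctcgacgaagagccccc
Dusp5: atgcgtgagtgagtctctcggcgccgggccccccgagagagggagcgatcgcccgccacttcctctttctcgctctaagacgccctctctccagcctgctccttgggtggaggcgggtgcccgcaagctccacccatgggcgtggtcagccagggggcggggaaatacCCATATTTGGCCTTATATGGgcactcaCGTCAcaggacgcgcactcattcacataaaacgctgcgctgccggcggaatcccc
Dusp1 held TGACGTCA at 143 to 136 bases before the start, a further TGACG at 191 to 187 and CACGTG at 126 to 121. Dusp2 held CACGTG at 109 to 104 bases before the start and no other match. Dusp5 held 2 CArG boxes end to end, at 82 to 73 and 72 to 63 bases before the start, and TGACG on the opposite strand at 55 to 51. Dusp16 had TGACG at 70 to 66, and the windows of Dusp6, Spry1, Spry2 and Spred1 held none of these letters. Of 32851 promoter windows of the same length in the table, 1.55% held TGACGTCA, 17.8% TGACG, 6.02% CACGTG, 6.75% TGANTCA and 1.47% a CArG box. Matches overlap, since each TGACGTCA also holds TGACG on both strands. These matches describe letters and show no binding.

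Per unit of transcript length, Spred1, Dusp6 and Dusp1 were the most abundant of the 10 in every library. The authors' FPKM of Spred1 was 81.8 and 82.5 in the high NT libraries, 80.0 and 81.9 in the high Satb1 siRNA libraries, 67.1 in low NT and 46.1 in low Satb1 siRNA. Dusp6, whose product is a cytoplasmic phosphatase selective for ERK, had an FPKM of 70.6 and 72.5 in high NT, 72.2 and 72.2 in high Satb1 siRNA, 39.3 in low NT and 41.3 in low Satb1 siRNA. Dusp1, coding for a nuclear phosphatase, had an FPKM of 33.5 and 33.7, then 21.7 and 20.2, then 159 and 118 in the same order. The order of the leading genes was thus Spred1, Dusp6, Dusp1 in both high groups and Dusp1, Spred1, Dusp6 in both low groups. Spred1 and Dusp6 did not overlap in any group, although in the low Satb1 siRNA library they lay close together.

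Lower in the order came Dusp16, coding for a phosphatase that acts mainly on JNK and p38, with an FPKM of 7.87 to 11.1 over the 6 libraries. Dusp4, coding for a nuclear phosphatase, had a group mean FPKM of 4.70, 3.69, 2.09 and 2.91 in high NT, high Satb1, low NT and low Satb1. Dusp5, coding for a nuclear phosphatase selective for ERK, came to 2.87, 2.18, 17.3 and 23.5. Dusp4 thus stood above Dusp5 in the high groups and below it in the low groups. In the high groups the scarcest were Spry2, Dusp2, Spry1 and Spry4, each under 2 FPKM in all 4 libraries, while in the low groups Dusp4 stood below Dusp2 and Spry2. Dusp2, the gene of a nuclear phosphatase of activated immune cells, had an FPKM of 0.66 and 0.60 in high NT, above Spry1 (0.46 and 0.55) and Spry4 (0.48 and 0.44), which overlapped. In high Satb1 siRNA it stood below both, at 0.33 and 0.43 FPKM. In low NT Dusp2 reached 7.46 FPKM, above Spry2 at 5.77 FPKM, and in low Satb1 siRNA 5.34 FPKM, below Spry2 at 6.23 FPKM.

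The make-up of the phosphatases differed between the experiments. Dusp1 made up 27.8% and 27.6% of the summed FPKM of the 6 Dusp genes in high NT, 19.6% and 18.8% in high Satb1 siRNA, 67.8% in low NT and 58.5% in low Satb1 siRNA. Dusp6 made up 58.6% and 59.3%, 65.4% and 67.0%, 16.7% and 20.4% in the same order. The quotient of Dusp1 over Dusp6 FPKM, which does not depend on how libraries are scaled to each other, was 0.474 and 0.465 in high NT, 0.300 and 0.280 in high Satb1 siRNA, 4.06 in low NT and 2.87 in low Satb1 siRNA. It was lower with Satb1 siRNA in both experiments, and the experiments did not overlap. Spred1 held 83.3% to 97.5% of the summed FPKM of the 4 Sprouty and Spred genes.

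**Figure D1:**
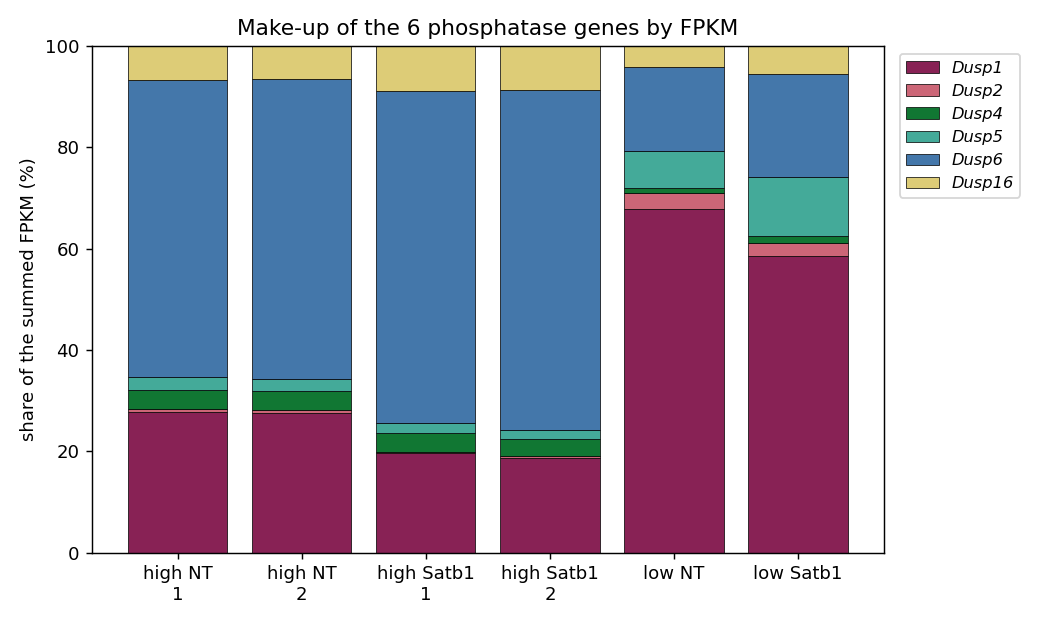
Share of each of 6 phosphatase genes in their summed FPKM (y axis, percent) for the 6 libraries (x axis); the stacked colours are genes. Dusp6 is the widest band in the 4 high libraries (58.6% to 67.0%) and Dusp1 in the 2 low libraries (67.8% and 58.5%).

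In the high experiment 7 of the 10 genes were called lower with Satb1 siRNA, 1 higher and 2 not, at an adjusted p under 0.05 in edgeR. Of all 20242 genes tested, 33.2% were called lower and 32.8% higher, 66.0% in all. A call in either direction was thus common among all genes, and the 7 of 10 stand against a background of about 1 gene in 3 called lower. The median log2 fold change was -0.34 for the 10 genes and 0.011 for all genes tested. All 10 passed the filter on low counts. Values of single libraries below are CPM, counts scaled to library size with TMM factors over all 6 libraries.

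Dusp1 and Dusp2 had the largest falls among the 10. With NT siRNA Dusp1 stood at 60.1 and 60.5 CPM, with Satb1 siRNA at 37.0 and 34.7 CPM. Both Satb1 siRNA libraries lay below both NT libraries. The log2 fold change of Dusp1 came to -0.74 (SE 0.029 over repeats; edgeR adjusted p = 3.81e-35), a fall by 40.2%. Dusp2 stood at 0.982 and 0.884 CPM with NT and 0.491 and 0.607 CPM with Satb1 siRNA, from 73, 69, 29 and 34 counts. Its log2 fold change was -0.76 (SE 0.22, edgeR adjusted p = 1.66e-03), about as large as that of Dusp1 with a wider error, and in DESeq2 the call ended (adjusted p = 0.0625).

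The other nuclear phosphatase genes fell less. Dusp4 went from 10.4 and 10.8 CPM to 8.37 and 7.43 CPM, a log2 fold change of -0.42 (SE 0.063, edgeR adjusted p = 3.63e-08). Dusp5 went from 3.13 and 2.84 CPM to 2.33 and 1.89 CPM, a log2 fold change of -0.49 (SE 0.12, edgeR adjusted p = 2.67e-04). In both cases the NT and Satb1 siRNA libraries did not overlap.

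Dusp6 and Dusp16 were close to their control level. Dusp6 stood at 183 and 188 CPM with NT and at 179 and 179 CPM with Satb1 siRNA, a log2 fold change of -0.046 (SE 0.016, edgeR adjusted p = 0.0101). That call ended, in edgeR, with scaling by library size alone (log2 fold change 0.0087, adjusted p = 0.736), and without NT replicate 2, Satb1 siRNA replicate 1 or Satb1 siRNA replicate 2 (adjusted p = 0.131, 0.0802 and 0.0609). Dusp16 was the 1 gene called higher, from 33.8 and 32.8 CPM to 37.1 and 36.4 CPM, with a log2 fold change of 0.15 (SE 0.031, edgeR adjusted p = 2.41e-05).

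Among the upstream inhibitors Spry2 fell, Spred1 fell slightly, and Spry1 and Spry4 were not called. Spry2 went from 3.36 and 2.96 CPM to 2.37 and 1.93 CPM, a log2 fold change of -0.55 (SE 0.12, edgeR adjusted p = 4.54e-05). Spred1 went from 220.25 and 222 CPM to 204 and 209.9 CPM, a fall by 6.02% (log2 fold change -0.090, SE 0.014, edgeR adjusted p = 9.51e-08). With scaling by library size alone that log2 fold change was -0.035 (edgeR adjusted p = 0.020). The Spred1 FPKM of the NT and Satb1 siRNA libraries overlapped. Spry1, at 1.06 and 1.31 against 1.03 and 0.947 CPM, had a log2 fold change of -0.26 (SE 0.18, edgeR adjusted p = 0.201). Spry4, at 2.04 and 1.86 against 1.93 and 2.30 CPM, had one of 0.12 (SE 0.13, edgeR adjusted p = 0.425), and its libraries overlapped. A fit that counts each group as 1 sample is possible only over both experiments, with the repeats summed and the experiment as a term, and it gives 1 siRNA effect common to both. In that fit 0 of the 10 genes and 57 of 21235 genes were called in edgeR. At an unadjusted edgeR p under 0.05 were 3 of the 10 and 1919 of the 21235. The smallest edgeR adjusted p among the 10 was that of Dusp1 (log2 effect -0.77, adjusted p = 0.0893).

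**Figure D2:**
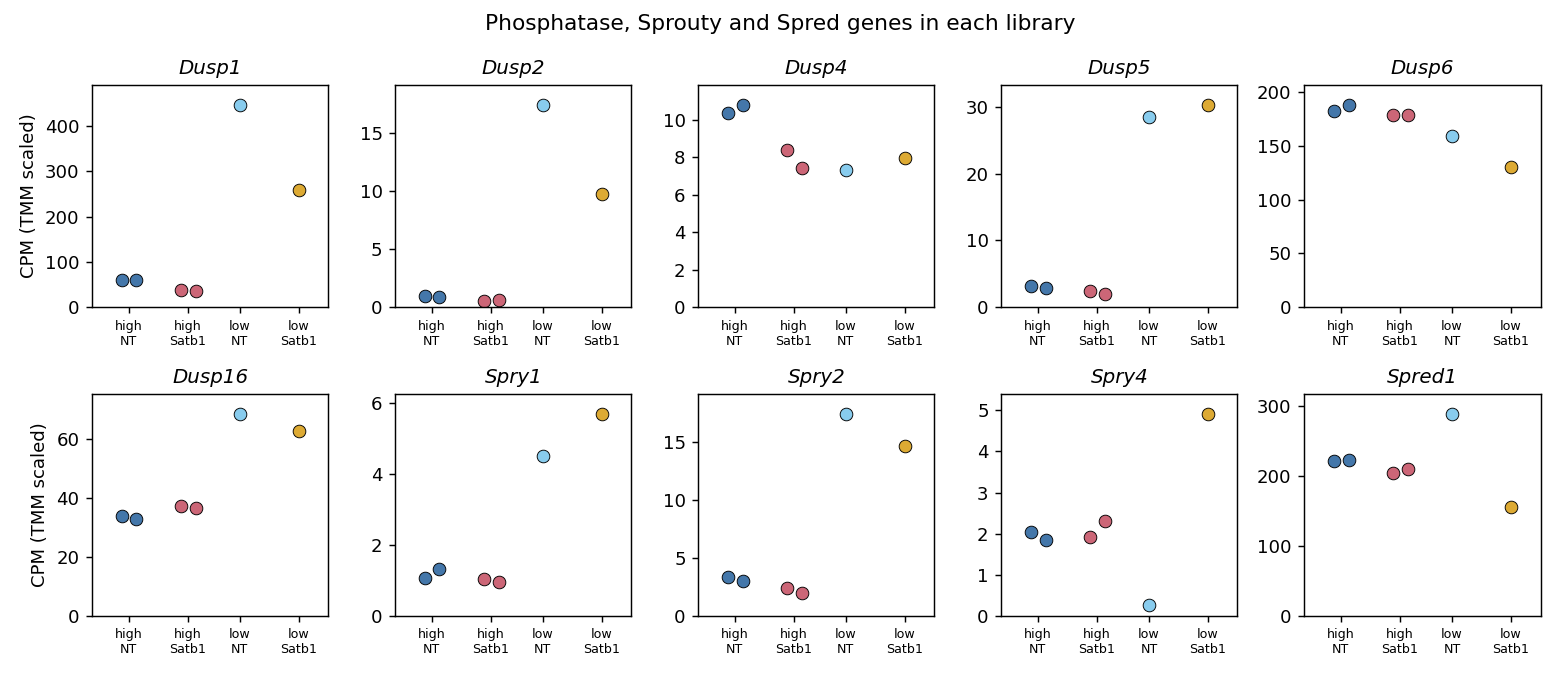
CPM after TMM scaling (y axis, linear, from 0, its own range in each panel) of the 10 genes in each library, grouped by experiment and siRNA (x axis); each point is 1 library. Dusp1, Dusp2, Dusp5, Dusp16, Spry1 and Spry2 lie higher in both low libraries than in all 4 high libraries, and Spry4 has its lowest point in low NT (0.262 CPM).

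In the low experiment Dusp1, Dusp2 and Spred1 were lower with Satb1 siRNA, and Spry4 was far higher. There is 1 library with each siRNA, so no test was made, and the intervals cover counting error only. Dusp1 stood at 447 CPM with NT and 259 CPM with Satb1 siRNA, a ratio of 0.580 (95% interval 0.560 to 0.599). Dusp2 stood at 17.4 and 9.70 CPM, a ratio of 0.559 (0.468 to 0.665). Both ratios are near those of the high experiment, which were 0.598 for Dusp1 and 0.591 for Dusp2. Spred1, with 288 CPM for NT and 155 CPM for Satb1 siRNA, had the lowest ratio of the 10, at 0.537 (0.515 to 0.561), where the high experiment gave 0.940.

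Dusp4 and Dusp5, which fell in the high experiment, did not differ beyond counting error in the low one with TMM scaling. Dusp4 stood at 7.34 and 7.98 CPM (ratio 1.09, interval 0.866 to 1.37) and Dusp5 at 28.5 and 30.3 CPM (ratio 1.06, interval 0.946 to 1.19). Spry1 stood at 4.51 and 5.68 CPM (ratio 1.26, interval 0.9504 to 1.68). Dusp6 (159 and 131 CPM, ratio 0.820), Dusp16 (68.4 and 62.7 CPM, ratio 0.917) and Spry2 (17.4 and 14.7 CPM, ratio 0.842) had intervals below 1. These 3 changed sign with scaling by library size alone (log2 ratios of 0.071, 0.23 and 0.11), a setting that moved the median of all genes from -0.043 to 0.31, and they stayed below that median. The same setting put the intervals of Dusp4, Dusp5 and Spry1 above 1 (log2 ratios of 0.48, 0.44 and 0.69). With TMM over the 2 low libraries alone, the intervals of Dusp16 and Spry2 held 1 (log2 ratios of -0.060 and -0.18).

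Spry4 was counted 5 times in the low NT library and 109 times in the low Satb1 siRNA library. On the CPM scale these are 0.262 and 4.92, a ratio of 18.8 (interval 7.79 to 58.9). Among the 20971 genes compared, 11 with a count in low NT, Spry4 included, had a ratio this high. Genes at 0 counts in low NT are among the 20971 but could not enter the 11, so the 11 may understate such rises. The high libraries, at 1.86 to 2.30 CPM, lay between the 2 low libraries. The 8 markers of mesothelial, epithelial or tumour cells moved the same way in the low experiment, all 8 with intervals above 1, and their summed level went from 190.4 to 672 CPM. In the high experiment that sum was 863 to 866 CPM with NT and 955 to 964 CPM with Satb1 siRNA. The part of such cells in the Spry4 result was not tested. In bulk libraries a change in the number of cells of a type and a change in RNA per cell cannot be told apart.

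Over the 10 genes, 6 had intervals below 1 in the low experiment, 1 above and 3 that held 1, where 25.5% of 20971 genes had intervals below 1 and 19.5% above. The median log2 ratio was -0.19 for the 10 genes and -0.043 for all. Dusp1, Dusp2, Dusp6, Spry2 and Spred1 were both called lower in the high experiment and below 1 in the low one, 5 of 10, against 15.7% of all 20154 genes measured in both. With scaling by library size alone 3 of 10 did so (Dusp1, Dusp2 and Spred1), against 5.79% of all genes. That scaling left 3 of the 10 below 1 in the low experiment, against 10.1% of all genes. It put 5 above 1 (Dusp4, Dusp5, Dusp16, Spry1 and Spry4), against 40.9%. With TMM over the 2 low libraries alone, 4 of the 10 genes were below 1, and Spry2 was no longer lower in both experiments. The share of all genes below 1 in that setting is not given here.

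**Figure D3:**
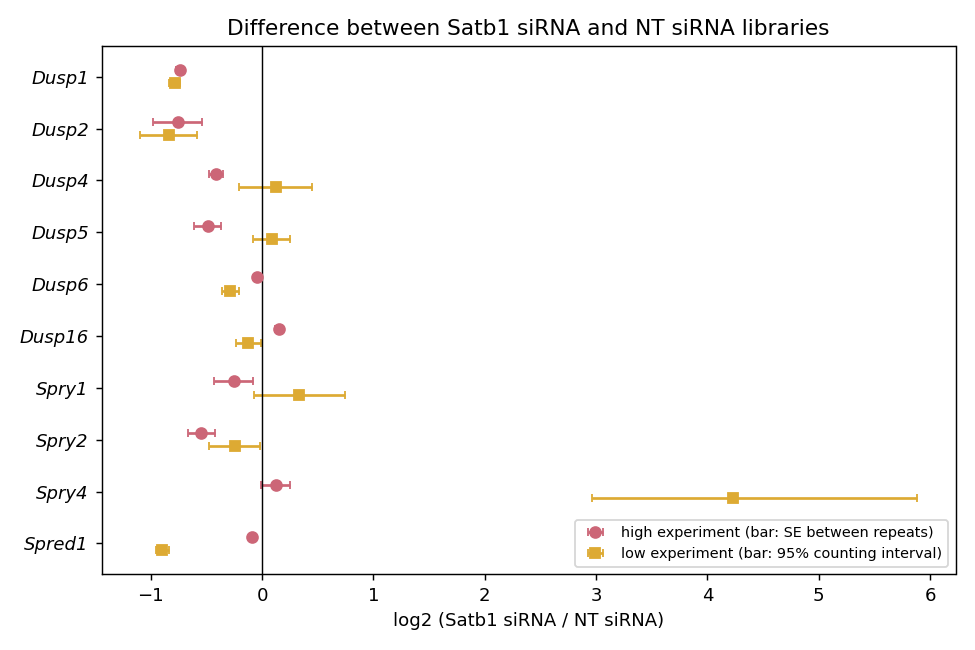
Log2 ratio of Satb1 siRNA over NT siRNA (x axis) for the 10 genes (y axis); circles are the high experiment with the SE between repeats, squares the low experiment with the 95% counting interval. Dusp1 and Dusp2 lie close together in the 2 experiments (-0.74 and -0.79, -0.76 and -0.84), while Spry4 (0.12 and 4.23) and Spred1 (-0.090 and -0.90) do not.

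The difference between the experiments was fitted as an interaction in edgeR. Its low arms are 1 library each and its spread comes from the high repeats alone, so a call shows a difference beyond repeat noise between these libraries and does not show that the siRNA effect differs between the experiments. On that footing 6 of the 10 genes were called, as were 39.7% of 20971 genes. Spred1 (difference of log2 effects, low minus high, -0.80, SE 0.046, edgeR adjusted p = 1.15e-31) and Spry4 (4.10, SE 0.45, edgeR adjusted p = 5.10e-14) had the largest differences in size. Dusp4 (0.54) and Dusp5 (0.58) were called too, with edgeR adjusted p = 7.45e-03 and 6.66e-04, but not in DESeq2 (adjusted p = 0.440 and 0.349). Dusp6 (-0.23) and Dusp16 (-0.27) were called with TMM scaling, changed sign with library size alone (0.062 and 0.027), and Dusp16 was not called in DESeq2 (adjusted p = 0.0748). Dusp1 and Dusp2 were not called, with differences of -0.039 (SE 0.044, edgeR adjusted p = 0.540) and -0.075 (SE 0.26, edgeR adjusted p = 0.935). For Dusp1 the sign of that small difference turned with library size alone, where it was called (0.26, edgeR adjusted p = 1.34e-07).

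The control libraries of the 2 experiments differed by more than 2-fold for 7 of the 10 genes. Dusp2 was 18.6 times as high in low NT as in high NT (17.4 against 0.982 and 0.884 CPM), Dusp5 9.56 times, Dusp1 7.41 times, Spry2 5.52 times, Spry1 3.80 times and Dusp16 2.06 times. Spry4 went the other way, 7.43 times lower in low NT on 5 counts. Dusp4 (ratio 0.693), Dusp6 (0.859) and Spred1 (1.30) differed by less than 2-fold, and the Spred1 ratio changed direction with scaling by library size alone (log2 ratio 0.38 against -0.255). In all, 6 of 10 were over 2-fold higher and 1 over 2-fold lower, against 20.1% and 40.3% of 20971 genes, and the median log2 ratio was 1.48 against -0.10 for all genes. With library size alone, which moved the median of all genes to -0.74, 5 of 10 were over 2-fold higher (11.5% of all genes) and 2 over 2-fold lower (51.9%). Dusp16 then stood at 1.32 times its high NT level, and Dusp4 at a ratio of 0.446. This comparison shares the low NT library with the low siRNA comparison, so the low Spry4 count enters both. Experiment and any difference in collection, purity or library preparation cannot be told apart here.

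The libraries of the experiments also differed in markers of the labelled cell type. The summed level of 10 dendritic cell markers was 455 to 458 CPM in high NT, 248 to 261 CPM in high Satb1 siRNA, 11130 CPM in low NT and 10920 CPM in low Satb1 siRNA. Cd74 and the MHC class II genes H2-Aa and H2-Ab1 made up most of each sum, so it does not give the course of the other markers. With Satb1 siRNA, 4 of the 10 were called higher in the high experiment, and 8 had intervals above 1 in the low one. None of these 10 markers was at 0 counts in any library, but Flt3 was at 0.962 CPM on average in high NT and Cd74, the invariant chain gene of MHC class II, at 154 CPM, against 16.5 and 6830 CPM in low NT. The 10 macrophage markers summed to 3779 to 3785 CPM in high NT and 8503 CPM in low NT. Of these 10, 5 were over 2-fold higher in low NT and 2 over 2-fold lower, among the latter Mrc1 (1575 and 557 CPM). The 5 long nuclear RNAs summed to 26650 to 26680 CPM in high NT and 2976 CPM in low NT. Most of the high NT sum was Malat1 (23860 CPM on average, against 1174 CPM in low NT). Of the 5, 3 were over 2-fold lower in low NT, while Neat1 (672 and 598 CPM) and Xist (835 and 1038 CPM) differed less. The part of these differences in the phosphatase levels was not tested.

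The other genes of the 2 families gave a mixed picture. Dusp7, which encodes a cytoplasmic ERK phosphatase, fell in the high experiment (log2 fold change -0.50, edgeR adjusted p = 5.54e-15) and had a low log2 ratio of -0.32. Dusp8, a JNK and p38 phosphatase gene, also fell in the high experiment (-0.70, edgeR adjusted p = 4.35e-04), and its counting interval in the low one held 1. Dusp10, of the same substrate class, was called higher in the high experiment (0.16, edgeR adjusted p = 3.10e-04) and was lower in the low one (-0.30). Dusp9 was not called (-0.14, edgeR adjusted p = 0.514). Spred2, a close relative of Spred1, fell by 0.71 on the log2 scale in the high experiment (edgeR adjusted p = 1.97e-17) and stood at 20.03 and 18.04 CPM in the low one. Of 9 small or atypical Dusp genes, which lack the MAP kinase binding domain, 1 was called higher and 3 lower, and the list's median was 0.0076 (Dusp3 0.0076, Dusp11 -0.082).

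Most genes of a list known to be induced by ERK signalling and serum were lower with Satb1 siRNA. Of 20 such genes, from which the 10 genes above were left out, 17 fell in the high experiment, 1 rose and 2 did not pass the test; the median log2 fold change was -0.50. Of all genes tested 33.2% were called lower. In the low experiment 15 of the 20 had intervals below 1, 1 above and 4 that held 1, with a median of -0.62, where 25.5% of all genes lay below 1. Both held for 14 of 20, and for 15.7% of all genes. Jun, an AP-1 subunit gene, had a log2 fold change of -0.65 in the high experiment and a log2 ratio of -0.43 in the low one, and Ccnd1, the cyclin D1 gene, -0.18 and 0.030. Egr1 and Fos, the classical immediate early genes, named here after their values were seen, had -0.75 and -0.76 in the high and -1.29 and -0.44 in the low experiment. The list's summed level was 850.2 to 853 CPM in high NT, 588 to 593 CPM in high Satb1 siRNA, 2532 CPM in low NT and 1804 CPM in low Satb1 siRNA.

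**Figure D4:**
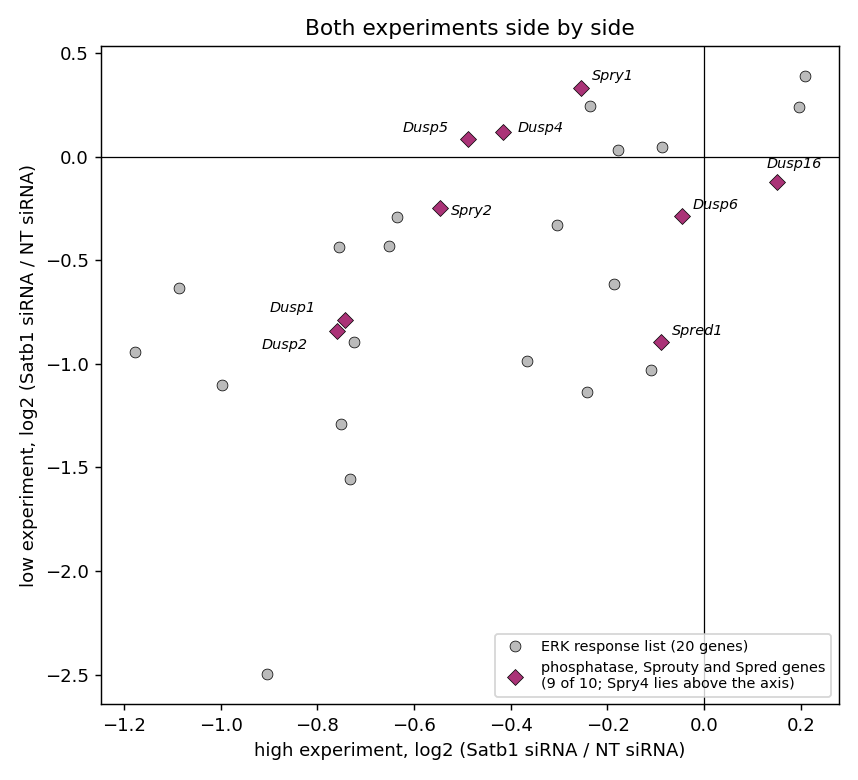
Log2 ratio of Satb1 siRNA over NT siRNA in the high (x axis) and the low experiment (y axis); diamonds are 9 of the 10 phosphatase, Sprouty and Spred genes (Spry4, at 0.12 and 4.23, is outside the axis) and grey circles the 20 genes of the ERK response list. Dusp1 and Dusp2 lie among the circles that are lower in both experiments, and Dusp6, Dusp16 and Spred1 lie near 0 on the x axis.

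For the kinases themselves the medians in the high experiment were nearer 0. Of all genes tested there, 33.2% were called lower and 32.8% higher. Of 16 genes of the Ras, Raf, MEK and ERK cascade 8 fell, 4 rose and 4 did not pass the test (median -0.075; Map2k1, which encodes MEK1, -0.43; Nf1, a Ras inhibitor gene, 0.25). In the low experiment 11 of the 16 had intervals below 1 and 1 above, with a median of -0.22 (Map2k1 -0.71, Nf1 0.22). Of all genes 25.5% had intervals below 1 there and 19.5% above. Among 14 genes of the JNK and p38 pathways 6 fell, 5 rose and 3 did not pass (median -0.0088), and the low experiment had 6 below and 2 above. Mapkapk2, the gene of the p38 target MK2, had -0.31 in the high experiment and -1.21 in the low one, and the kinase gene Map3k1 -0.033 (not called) and 0.13. Among 13 receptor genes 4 fell, 6 rose and 3 did not pass (median 0.044). Csf1r, the receptor of macrophage colony-stimulating factor, was higher by 0.10 on the log2 scale in the high experiment and had -0.86 in the low one, and Tlr4 had -0.27 and -0.20. Among 12 genes that act in mRNA decay 8 fell, 2 rose and 2 did not pass (median -0.052; Cnot1 -0.022, not called; Dcp2 -0.050). In that list Zfp36, named after its values were seen and coding for the decay factor tristetraprolin, fell from 35.0 to 16.8 CPM in the high experiment (-1.05) and stood at 927 and 531 CPM in the low one (-0.80).

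Lists of stress, nuclear RNA and other cell types were counted in the same way. Of all genes tested in the high experiment, 33.2% were called lower and 32.8% higher, 66.0% in all. In the low one 25.5% of all genes had intervals below 1 and 19.5% above. A call or an interval off 1 was thus common in any list. All 8 heat shock genes were called lower in the high experiment, with a median of -0.38 (Hspa8 -0.23, Hsp90aa1 -0.30), and 6 of 8 had intervals below 1 in the low one. Of the 5 nuclear RNAs 4 rose and 1 did not pass (median 0.31; Malat1 0.23, Kcnq1ot1 0.51). Dendritic cell markers were called lower in 6 of 10 cases and higher in 4 in the high experiment, with a median of -0.54 (H2-Ab1 -0.87), and 8 of 10 had intervals above 1 in the low one. Macrophage markers were called higher in 6 of 10 and lower in 3 in the high experiment (Mrc1 0.090, C1qa -0.26), and 9 of 10 had intervals below 1 in the low one. Monocyte markers were split (3 higher, 2 lower, 1 not; F13a1 0.42, Chi3l3 1.16). Of the 5 neutrophil markers tested 3 were called higher, 1 lower and 1 not (Cxcr2 0.37, S100a8 0.70), of 6 B cell markers 4 higher and 2 not (Bank1 0.86, Ms4a1 1.152), and of 5 T and NK cell markers 3 higher and 2 not (Cd3d 0.36, Cd8a 0.57). Mesothelial, epithelial and tumour markers were called higher in 6 of 8 cases (Gpm6a 0.25; Krt18 -0.026, not called), fibroblast and endothelial markers higher in 2, lower in 4 and not called in 1 (Dcn 0.32, Pecam1 -0.32), and erythroid markers higher in 2 of 4 (Alas2 0.51; Hbb-b1 -0.039, not called). Several of these lists lay the other way in the low experiment, beside the lower values of Dusp1, Dusp2 and Spred1. All 7 neutrophil markers had intervals below 1, with a summed level of 351 CPM for NT and 98.0 CPM for Satb1 siRNA. Monocyte markers had intervals below 1 in 4 of 6 cases and above in 1 (4064 and 2409 CPM), and B cell markers below in 4 of 6 (33.8 and 22.2 CPM). Macrophage markers summed to 8503 and 5759 CPM. T and NK cell markers lay below 1 in 3 of 7 cases and above in 1, fibroblast and endothelial markers below in 2 and above in 2 of 7, and erythroid markers below in 1 of 4. The part of these lists in the results for the 10 genes was not tested.

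The genes with the most similar course over the 4 groups were found by distance between centred log2 CPM profiles, in a pool of 9364 genes whose log2 CPM averaged 3 or more. For Dusp6, the Dusp gene with the highest mean CPM over 6 libraries, they were D5Ertd579e, Rcl1, Zbtb43, Zbtb24 and Hist2h2be, at distances of 0.030 to 0.046 on the log2 scale. For Spred1 they were 1810029B16Rik, Rbm3, Nlrc4, Scamp1 and Rab10, at distances of 0.040 to 0.13. Nlrc4, an inflammasome receptor gene, went from 30.3 and 28.2 CPM in the high groups to 43.4 and 20.7 CPM in the low ones. For Dusp1, added after its values were seen, those nearest included Cd274, Csf1, H2-K2 and Lrp10, at 0.11 to 0.19. Cd274, which encodes PD-L1, had group levels of 193.8, 117, 1385 and 892 CPM in high NT, high Satb1, low NT and low Satb1. With 4 groups such likeness is a description.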

How the data were processed

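RNA-seq of 6 libraries in 4 groups was analysed. Per the labels, total RNA was isolated with Trizol and prepared with a stranded total RNA kit from Illumina. The deposited table gives FPKM values, which the authors scaled to gene length and library size, and a count per gene, both per the file headers. The counts, whole numbers as deposited, were taken for estimated counts of RSEM 1.2.12, a tool that the submitters' processing notes name with DESeq2 and mm9. The sources used here name no aligner and do not say whether counting used strand, so reads of overlapping genes may be shared.

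Comparisons used edgeR 4.0.16 in R 4.3.3: quasi-likelihood F-tests (robust), TMM scaling, filterByExpr, two-sided, with Benjamini-Hochberg adjustment over all genes tested, with a threshold of 0.05. The SE is the log2 fold change divided by the square root of F. The low experiment and the control libraries were described by ratios of counts with exact conditional binomial 95% intervals, which cover counting error only. Where a gene has 0 counts, the limit is 3 counts (0.0384 to 0.157 CPM by library, TMM scaled). DESeq2 1.42.0 and other scalings, filters and sample sets were alternatives. The fits were also run on simulated counts in which all libraries had a spread as small as that of the repeats. Such a run cannot show how the fits behave if each group is 1 sample.

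The genes, the 10 pathway lists and the 9 marker lists were chosen with earlier results of these data known, and they support nothing independently. Of 177 list entries 9 were not analysed here. The lists share a few genes. Named are the 10 genes, Satb1, the remaining MAP kinase phosphatase and Spred genes, the 2 tested genes with the highest mean CPM over the 4 high libraries in each other list, and the 5 genes with profiles nearest to the most abundant Dusp gene and the most abundant Sprouty or Spred gene (0.1 CPM was added before logs). The erythroid list departs from this rule, as Hbb-b1 was named in place of Hba-a2, which had the higher mean CPM. Flt3, H2-Aa, Neat1, Xist, Egr1, Fos, Zfp36 and the neighbours of Dusp1 were added later. One of those neighbours is not reported here.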

Additional observations from a re-analysis of the deposited data

Results flagged for a closer look

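For 6 of the 10 genes the log2 effect of Satb1 siRNA in the low experiment minus that in the high one passed the interaction test in edgeR. So did 39.7% of all 20971 genes. Among the 10 genes, the difference was 0.54 for Dusp4 and 0.58 for Dusp5, which fell in the high experiment and whose counting intervals in the low one held 1. It was -0.23 for Dusp6, -0.27 for Dusp16 and -0.8 for Spred1, each lower with Satb1 siRNA in the low experiment. It was 4.1 for Spry4, which rests on 5 counts in the low NT library. The low experiment has 1 library with each siRNA, so the spread behind these tests comes from the near-identical repeats of the high experiment, and they do not show that the siRNA effect differs between the experiments. DESeq2 did not call Dusp4, Dusp5 or Dusp16 (adjusted p = 0.440, 0.349 and 0.0748), and with library size alone Dusp6 and Dusp16 changed sign.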

How the results depend on the processing

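The number of the 10 genes called lower in the high experiment (7) was 6 or 7 under every alternative run but one, 7 with the replicate block and 6 to 7 when 1 library was left out. The exception summed the repeats and entered the experiment as a term, which estimates 1 effect over both experiments and so also moves with the low libraries: 0 of the 10 genes and 57 genes in all were called, and Spry1 had 0.027. The replicate block gave 13248 genes called, against 13367 without it and 11942 to 12092 without 1 library. Same-numbered samples did not deviate together (r = -0.034 across genes between the repeat differences of the 2 groups). Over all genes in the high experiment, 6722 of 20242 were called lower in the main fit. With library size alone this was 5682 of 20242, and in DESeq2 5424 of 23029. With library size alone, Dusp6 turned to 0.0087 in the high experiment. In the low experiment 3 of the 10 genes then had intervals below 1, in place of 6, and 5 above, in place of 1 (all genes: 10.1% and 40.9%, in place of 25.5% and 19.5%). Dusp6 at 0.071 and Spry2 at 0.11 then had intervals that held 1, and Dusp16 at 0.23 one above 1. Spred1 turned to -0.255 in low NT over high NT. The differences between the experiments turned to 0.26 for Dusp1, 0.22 for Dusp2, 0.062 for Dusp6 and 0.027 for Dusp16. DESeq2 called 3 of these differences, in place of 6, and its share over all genes is not given here. With TMM over the 2 low libraries alone, 4 of the 10 genes had low intervals below 1 and 1 above, as those of Dusp16 and Spry2 held 1. The shares over all genes in that setting are not given here. Leaving out 1 library gave -0.0092 to 0.25 for Spry4 in the high experiment, and differences of -0.095 to 0.0073 for Dusp1 and -0.23 to 0.071 for Dusp2. The library size setting moves all genes alike; the cause of the other changes was not tested. Counts of 29 to 73 for Dusp2 and 5 for Spry4 limit their precision.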
